A study of Mus musculus with 48 samples.

Results

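Crystallins are the water-soluble proteins that fill the fibre cells of the eye lens. The 10 genes described here, Cryaa, Cryab, Cryba1, Cryba2, Cryba4, Crybb1, Crybb2, Crybb3, Crygs and Crygn, were taken by symbol from the deposited count and TPM tables, which list 54331 genes. All 10 were found. TPM is a level per transcript, scaled by transcript length and library size. Alpha crystallins belong to the small heat shock proteins and act as chaperones, and Cryab is also made by many cells outside the lens, among them oligodendrocytes. Beta and gamma crystallins share a common fold and are best known as structural lens proteins, although Crybb1 is also a recorded transcript of microglia in the developing mouse brain.

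The study sequenced RNA of mouse retinal ganglion cells, the neurons whose axons form the optic nerve, and RNA from the brain regions their axons reach, which are the lateral geniculate nucleus (LGN) and superior colliculus (SC). Axonal RNA was captured either by ethynyl uridine (EU), a label injected into the eye, or by axon-TRAP, which pulls down tagged ribosomes with their RNA. The crystallins serve here as genes whose main known site, the lens, is in the eye, next to the retina and away from the brain.

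The 48 libraries form 15 groups, 12 libraries from the eye and 36 from the brain. The eye groups, all at postnatal day 14 (P14) and with 3 libraries each, are EU-labelled immunopanned wild-type cells, immunopanned wild-type cells without the label, FACS-sorted eye cells labelled fmr1ko and FACS-sorted wild-type eye cells. The wild-type SC EU groups are P10 (3 libraries), P10 followed by a chase of 4 days (3), P14 (5) and 8 weeks (3). The wild-type SC TRAP groups are P10 (3) and P14 (5), and the LGN groups at P14 hold 2 EU and 3 TRAP libraries. At P14, SC EU and SC TRAP libraries labelled fmr1ko number 3 each. The last group is EU-labelled SC of axotomized animals labelled sarm1ko, with a chase of 7 days after P14 (3 libraries). All other groups are labelled as naive. The EU protocol describes pools of 3 animals, and the labels name neither strain nor the driver of the tagged ribosome. P14 SC libraries carry codes from 2 series. Replicates 3 to 5 were used in all comparisons except those with the LGN, which used replicates 1 and 2.

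Totals ran from 2558141 to 48263706 estimated counts per library, with a median of 22212787. Several libraries stood apart or went against their labels. Fmr1 did not separate the libraries labelled fmr1ko from wild type. In SC EU it was at 2.27 to 15.4 TPM in those labelled fmr1ko, against 0 to 6.99 TPM in wild-type P14 libraries, and in SC TRAP at 0.0584, 6.01 and 3.62 TPM, against 1.27 to 5.37 TPM. In FACS eye cells it was at 26.7, 2.58 and 2.96 TPM in those labelled fmr1ko, 2 of them below all wild-type libraries and 1 above, against 21.2, 13.0 and 5.48 TPM. Sarm1 was at 0.795 to 7.63 TPM in libraries labelled sarm1ko and at 4.80 to 39.6 TPM in P14 SC EU libraries, and these ranges overlapped. Replicate 2 of the SC TRAP libraries labelled fmr1ko held 93730 TPM of rod genes, the markers of the light-sensing rod cells, against 139.8 and 98.97 TPM in its replicates 1 and 3. Its retinal ganglion cell markers summed to 23.0 TPM, and its myelin markers to 23.3 TPM. Markers of retinal ganglion cells summed to 120.3 to 405 TPM in EU-labelled immunopanned libraries and 29.1 to 63.5 TPM in unlabelled immunopanned ones, below the 656.7 to 3891 TPM of the wild-type brain groups. Nefl, Nefm, Nefh, Thy1, Stmn2 and Slc17a6 are among these markers, and which cells gave the brain sums was not tested. Rod genes reached 97360 TPM in replicate 1 of the EU-labelled immunopanned libraries, against 4377 and 7513 TPM in its replicates 2 and 3. Among unlabelled immunopanned libraries, replicate 1 correlated with replicates 2 and 3 at r = 0.397 and 0.374 across genes, whereas replicates 2 and 3 correlated at 0.979.

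The genes lie on 6 chromosomes in GRCm38, and 5 of the 10 are on chromosome 5. There Cryba4 (112246493-112252518, minus strand) and Crybb1 (112255815-112269585, plus strand) point away from each other across 3296 bp, and Crybb2 (113058258-113070117) and Crybb3 (113075839-113081584) follow each other on the minus strand 5721 bp apart. Crygn (24751003-24758008, minus strand) lies farther away. Cryaa lies on chromosome 17 (31677807-31681733, plus strand), Cryba1 on chromosome 11 (77718615-77725283, minus strand), Cryba2 on chromosome 1 (74889934-74893143, minus strand) and Crygs on chromosome 16 (22805203-22811577, minus strand). Cryab on chromosome 9 (50751325-50756636, plus strand) overlaps Hspb2, so that its level is uncertain where the quantification shared reads between them. Cryaa, Cryba1 and Crybb2 also overlap another annotated gene. All are protein-coding.

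Promoters from 250 bases before to 50 bases from the gene start were available from RefSeq (GRCm38.p6) for 9 of the 10 genes. They are shown because 8 of the 9 hold TGCTGA, the core letters recognised by the Maf factors of lens fibre cells, on either strand, against 19.5% of 32851 promoters of the same length. The 9 include Crybb2, which has no match, and the matches lie 57 to 228 bases before the gene start, here that of RefSeq. The high share holds for the 9 and not for the related gamma crystallins Cryga to Crygf. Of the 6 promoters of Cryga to Crygf, 2 hold the Maf letters and 0 hold either of the other motifs described below. For Cryaa the RefSeq start is base 31677931, which is 124 bp inside the GENCODE gene, so its match lies within that gene. The letters TATAAA were found in 4 of the 9 (Cryba1, Cryba2, Crybb1 and Crygs), against 13.6% of all promoters, and GAANNTTC, letters of the heat shock element, in 0 of the 9, against 7.9%. TGCTGA ends in the letters GA with which GAANNTTC begins, so that these motifs could overlap, but no promoter of the 9 holds the second. Capitals mark TGCTGA in the promoters of the lens chaperone Cryaa, of Cryba1, the crystallin with the highest TPM in the lens-rich eye libraries, and of the neighbours Cryba4 and Crybb1:
Cryaa chr17:31677681-31677980, plus strand: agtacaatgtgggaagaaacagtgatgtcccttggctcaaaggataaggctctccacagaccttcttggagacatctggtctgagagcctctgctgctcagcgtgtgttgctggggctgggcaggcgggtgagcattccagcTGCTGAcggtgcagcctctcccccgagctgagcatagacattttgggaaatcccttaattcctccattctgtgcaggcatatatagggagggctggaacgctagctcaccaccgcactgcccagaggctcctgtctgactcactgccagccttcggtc
Cryba1 chr11:77725244-77725543, minus strand: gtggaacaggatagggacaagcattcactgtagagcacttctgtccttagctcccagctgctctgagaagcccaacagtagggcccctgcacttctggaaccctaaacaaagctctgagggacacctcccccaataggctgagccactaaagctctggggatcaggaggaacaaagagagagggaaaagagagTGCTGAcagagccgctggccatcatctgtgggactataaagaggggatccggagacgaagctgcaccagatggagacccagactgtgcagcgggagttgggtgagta
Cryba4 chr5:112252469-112252768, minus strand: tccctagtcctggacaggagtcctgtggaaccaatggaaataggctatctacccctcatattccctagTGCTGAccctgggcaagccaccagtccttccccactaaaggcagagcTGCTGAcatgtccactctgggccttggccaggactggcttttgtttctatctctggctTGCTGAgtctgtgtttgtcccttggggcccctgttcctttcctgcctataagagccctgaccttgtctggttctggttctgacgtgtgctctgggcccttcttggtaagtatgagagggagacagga
Crybb1 chr5:112255570-112255869, plus strand: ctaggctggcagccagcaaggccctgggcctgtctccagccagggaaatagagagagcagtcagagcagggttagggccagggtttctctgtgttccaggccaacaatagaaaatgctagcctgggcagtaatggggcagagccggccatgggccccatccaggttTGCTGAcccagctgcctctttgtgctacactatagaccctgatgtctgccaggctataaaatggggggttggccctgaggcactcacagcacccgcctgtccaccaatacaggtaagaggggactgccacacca
Cryba4 holds 3 matches, 182, 135 and 77 bases before its start, while Crybb1 holds 1 at 84 bases, Cryba1 1 at 57 bases and Cryaa 1 at 108 bases. A match is a description of these letters and was not tested as a binding site.

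**Figure D1:**
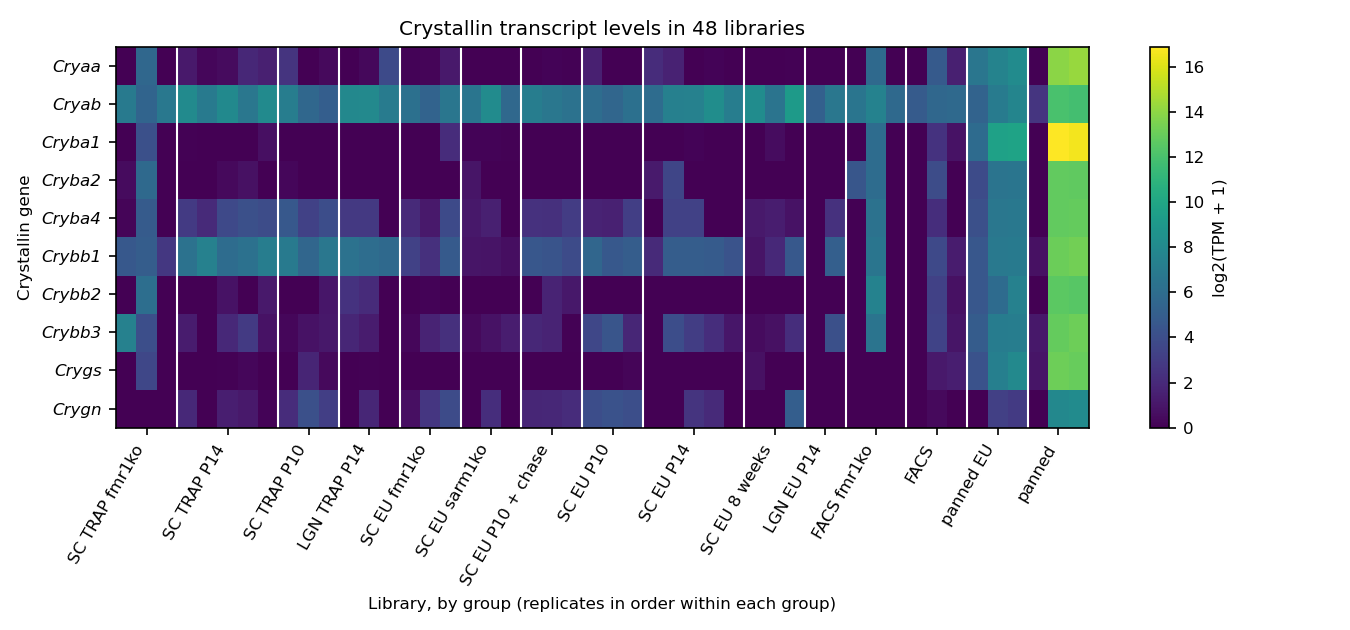
Levels of the 10 crystallin genes (rows) in each of the 48 libraries (columns, by group), as log2(TPM + 1) in colour. All 10 genes are high in 2 immunopanned eye libraries, whereas Cryab and Crybb1 run through most brain libraries.

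Crystallin RNA in the eye was concentrated in 2 unlabelled immunopanned libraries. The 10 genes took 0.0157%, 0.121% and 0.160% of counts in the EU-labelled immunopanned libraries and 0.000337%, 16.0% and 15.2% in the unlabelled ones. In FACS libraries labelled fmr1ko the shares were 0.00529%, 0.0354% and 0.00220%, and in wild-type FACS libraries 0.00101%, 0.00495% and 0.00237%. With the related Cryga to Crygf, near-identical copies whose single levels are uncertain, the unlabelled immunopanned libraries reached 30.2% and 33.0% in replicates 2 and 3 and 0.000674% in replicate 1. Mitochondrially encoded genes took 7.89%, 55.2% and 46.5% of counts in the EU-labelled immunopanned libraries and 0.144%, 47.3% and 42.3% in the unlabelled ones, and their part in these shares was not tested.

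The alpha crystallins followed this split. Cryaa, a chaperone of the lens, was at 99.9, 184.0 and 281 TPM in EU-labelled immunopanned libraries and at 0, 16029 and 19987 TPM in unlabelled ones. Cryab was at 40.4, 131 and 209 TPM in EU-labelled immunopanned libraries and at 4.96, 4177 and 3699 TPM in unlabelled ones. In both genes the unlabelled group spanned the whole EU-labelled group, with replicate 1 below it and the other replicates above.

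Cryba1, a beta crystallin, was the highest of the 10 in TPM in the 4 immunopanned libraries with the most crystallin RNA. Its levels were 57.8, 828 and 875 TPM in EU-labelled immunopanned libraries and 0, 121295 and 96837 TPM in unlabelled ones. It made up 17.9%, 45.9% and 38.9% of the summed crystallin TPM in the EU-labelled libraries, and 64.4% and 57.5% in unlabelled replicates 2 and 3. The other beta crystallins were closer together: Cryba2, Cryba4, Crybb1, Crybb2 and Crybb3 lay between 5794 and 10078 TPM in unlabelled replicates 2 and 3, and between 13.4 and 171 TPM across the EU-labelled libraries. The gamma genes differed from each other. Crygs, a gamma crystallin of the adult lens cortex, was at 18.5, 159 and 246 TPM in EU-labelled libraries and 0.941, 9166 and 7984 TPM in unlabelled ones. Crygn, a gene placed between the beta and gamma families, was at 0, 8.24 and 6.39 TPM in EU-labelled libraries and at 0, 230.5 and 285 TPM in unlabelled ones.

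**Figure D2:**
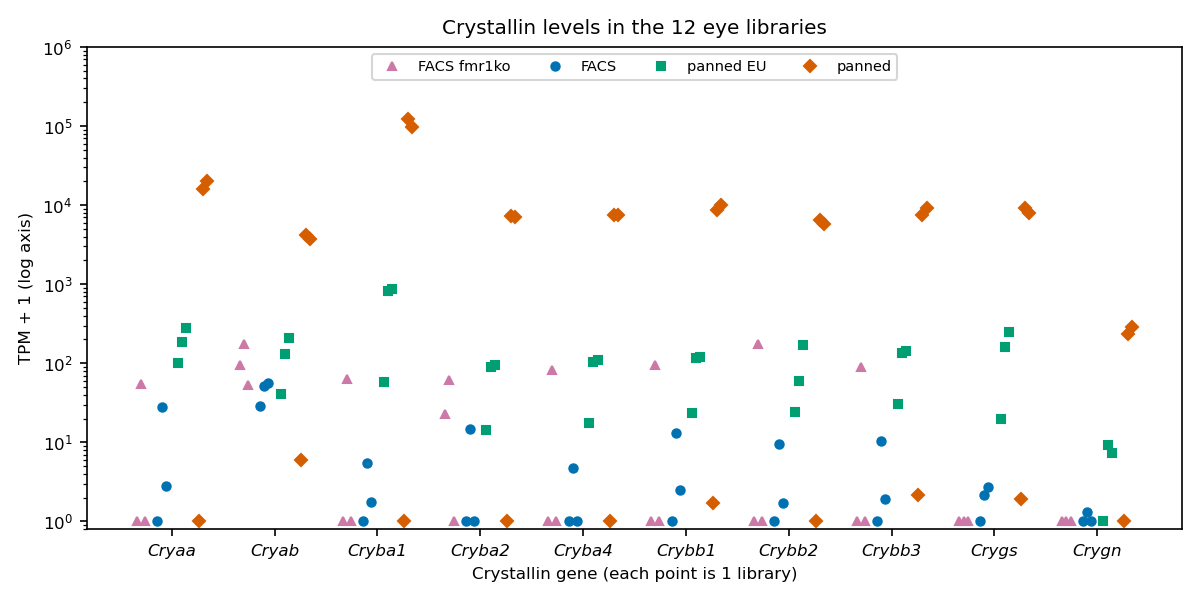
TPM + 1 of the 10 crystallins on a log axis in the 4 eye groups, 1 point per library. Unlabelled immunopanned replicates 2 and 3 sit above all other eye libraries for every gene, and replicate 1 of that group sits near 0 for most.

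EU-labelled and unlabelled immunopanned libraries were compared with the quasi-likelihood test of edgeR, a gene being called at an adjusted p under 0.05. None of the 10 crystallins was called, and percent called over all 13360 tested genes was 0%. At an unadjusted p under 0.05 there were 4 of the 10 (8.85% of all genes tested). DESeq2 called 9 of 10, where it called 3.82% of all genes, and limma called 0 of 10 and 12.8% of all genes. Cryba1, the crystallin with the most counts there, had a log2 fold change of -9.44 ± 5.88 (SE, adjusted p = 0.755 by edgeR). Without unlabelled replicate 1 the value was -10.04 ± 1.86 (adjusted p = 0.136). The median log2 fold change of the 10 was -8.45, beside 0.19 over all tested genes.

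Other lens genes were high in the same 2 unlabelled libraries. A list of 15 further lens genes summed to 3.33, 20.1 and 6.82 TPM in EU-labelled immunopanned libraries and to 2.20, 788 and 1065 TPM in unlabelled ones. Bfsp2, a subunit of the beaded filaments of lens fibres, was at 241 and 385 TPM in unlabelled replicates 2 and 3, Mip, the water channel of lens fibres, at 220.0 and 212 TPM, and Lgsn, a lens relative of glutamine synthetase, at 111 and 186 TPM. In replicate 1 all 3 were listed at 0. The list sum was also above 0 in brain, at 45.1 to 154 TPM in P14 SC TRAP and 91.5 to 161 TPM in LGN TRAP, above its sums in EU-labelled immunopanned libraries. Of these 3 genes, only Bfsp2 was clearly present in P14 SC TRAP, in a range close to that of the list sum. Mip and Lgsn were near 0 there. None of the 7 list members tested was called, and their median log2 fold change was -9.02. In bulk libraries fewer lens cells and less crystallin RNA per cell cannot be told apart.

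FACS-sorted cells held far less crystallin RNA than EU-labelled immunopanned cells, without a call. Cryaa was at 0, 26.7 and 1.77 TPM in FACS libraries, against 99.9, 184.0 and 281 TPM in EU-labelled immunopanned libraries. Cryba1 was at 0, 4.54 and 0.781 TPM in FACS libraries, against 57.8, 828 and 875 TPM in the immunopanned ones. Of 9 crystallins tested, 0 were called by edgeR (0% of 15694 genes). All 9 had an unadjusted p under 0.05, as did 16.6% of all genes. Apart from Cryab, these crystallins had no counts in FACS replicate 1 and passed the count filter through the immunopanned group. DESeq2, which tested all 10, called 9 of them, without Cryba2 (8.49% of all genes called), and limma called 7 of 10 (3.59% of all genes). For Cryba1 the log2 fold change was -10.31 ± 2.11 (adjusted p = 0.14 by edgeR). Without EU-labelled replicate 1, the library with the high rod genes, 3 of 10 crystallins were called, where 9.66% of all genes were, and Cryba1 was at -10.85 ± 1.56 (adjusted p = 0.0169). The numbers of crystallins called in this comparison restate the difference in level and are no further support for it.

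Among FACS libraries, 1 library labelled fmr1ko carried most of the crystallin RNA. In replicate 2 of that group 8 of the 10 genes had counts, with Crybb2 at 176 TPM, Crybb1 at 94.3 TPM, Crybb3 at 88.9 TPM, Cryba4 at 82.3 TPM, Cryba1 at 61.7 TPM and Cryaa at 54.3 TPM. In its replicate 1 only Cryab (95.2 TPM) and Cryba2 (21.7 TPM) were above 0, and in its replicate 3 only Cryab (52.8 TPM). Among wild-type FACS libraries, replicate 2 held counts of all 10 genes, at up to 26.7 TPM for Cryaa and 50.0 TPM for Cryab, and replicate 1 of Cryab alone.

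Cryab was thus the one crystallin present in all 12 eye libraries. It was at 95.2, 176 and 52.8 TPM in FACS libraries labelled fmr1ko, against 27.9, 50.0 and 54.7 TPM in wild-type FACS libraries, and the groups overlapped. Its log2 fold change was 1.71 ± 0.60 (adjusted p = 0.276 by edgeR). None of the 5 crystallins tested was called (0.0396% of 15165 genes were), 1 had an unadjusted p under 0.05, and DESeq2 and limma called 0.

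In the brain Cryab and Crybb1 led, and most of the other crystallins were near 0. Counts of Cryab were found in all 36 brain libraries, of Crybb1 in 35, Crybb3 in 31, Cryba4 in 29, Crygn in 21 and Cryaa in 20. Cryba1 had counts in 10, Crybb2 in 9, and Cryba2 and Crygs in 8 each. The median level was 106 TPM for Cryab, 27.0 TPM for Crybb1, 3.52 TPM for Cryba4 and 1.49 TPM for Crybb3, with Cryaa at 0.086 TPM and Cryba1, Cryba2, Crybb2 and Crygs at 0. The 10 genes together took 0.00125% to 0.0278% of counts in brain libraries.

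Cryba1, Crybb2 and Crygs were near 0 in most brain libraries. In P14 SC EU libraries Cryba1 reached at most 0.120 TPM in any of the 5 libraries, and Crybb2 and Crygs were at 0 in all 5. The exception among brain libraries was replicate 2 of the SC TRAP libraries labelled fmr1ko, the library with the rod genes. It held 47.9 TPM of Cryaa, 54.0 TPM of Cryba2, 68.0 TPM of Crybb2, 16.3 TPM of Cryba1 and 10.9 TPM of Crygs. Without it the highest brain level was 13.1 TPM for Cryaa, 10.7 TPM for Cryba2, 4.59 TPM for Crybb2, 3.39 TPM for Cryba1 and 2.37 TPM for Crygs.

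Set against EU-labelled immunopanned cells, EU-labelled RNA of P14 SC held less of 7 of the 9 crystallins tested (edgeR, 21.9% of 15540 genes called in either direction and 11.3% called lower). Cryaa was at 0, 0.106 and 0 TPM in P14 SC EU replicates 3 to 5, against 99.9, 184.0 and 281 TPM in EU-labelled immunopanned libraries, a log2 fold change of -13.46 ± 1.37 (adjusted p = 0.00199). Cryba1 fell by 14.20 ± 1.78 on the log2 scale (adjusted p = 0.00261). Cryba2, Crybb2 and Crygs had no counts in the SC libraries, and against a floor of 3 counts over the group they were at least 1160-fold, 1570-fold and 3470-fold lower there (adjusted p = 0.00694, 0.00588 and 0.0057 by edgeR). Cryaa and Cryba1 had 2 counts each over the SC libraries. These 5 genes therefore passed the count filter through the immunopanned group alone. They kept their call in all 13 alternatives, but the calls restate that difference in level and are no further support for it.

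Crybb3 and Crybb1 were also called lower. Crybb3 was at 7.39, 3.55 and 1.02 TPM in P14 SC EU libraries and at 29.4, 133 and 141 TPM in EU-labelled immunopanned ones, with a log2 fold change of -5.86 ± 1.21 (adjusted p = 0.0128 by edgeR). Crybb1 was at 30.7, 27.8 and 19.4 TPM in P14 SC EU libraries and at 22.7, 115 and 120 TPM in EU-labelled immunopanned ones. The Crybb1 groups overlapped, its log2 fold change was -3.33 ± 0.94 (adjusted p = 0.0344), and 7 of 13 alternatives ended the call, with adjusted p up to 0.175, among them the fits without any 1 of the 3 SC libraries and without immunopanned replicate 2 or 3. Microglial markers, which include no crystallin, summed to 44.7, 308 and 652 TPM in the EU-labelled immunopanned libraries. Cryba4 did not pass (-6.42 ± 2.07, adjusted p = 0.0549), and neither did Cryab (-0.84 ± 0.82, adjusted p = 0.516). Cryab was at 167, 307 and 139 TPM in P14 SC EU libraries and at 40.4, 131 and 209 TPM in the immunopanned ones, so that its TPM means and its fitted fold, which is scaled by TMM factors, ran in opposite directions.

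Without EU-labelled immunopanned replicate 1, 9 of 10 crystallins tested were called, all but Cryab, where 23.1% of all genes were. They include Cryaa, Cryba1, Cryba2, Crybb2 and Crygs, described above, and Crygn, with 5 counts in P14 SC EU against 152 in the immunopanned group. Of 13 other crystallin genes 11 were tested, 7 were lower and 0 higher, with a median log2 fold change of -8.14, beside -13.21 for the 9 crystallins and 0.11 over all genes. All 12 rod genes were lower in the same comparison, and 11 of 13 myelin genes tested were higher. Cryga to Crygf, part of the other crystallin genes, had no counts in P14 SC EU replicates 3 and 5. Of the 12 rod genes, 3 passed the count filter in P14 SC TRAP against SC EU. The numbers in this paragraph restate differences in level and are no further support for them.

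**Figure D3:**
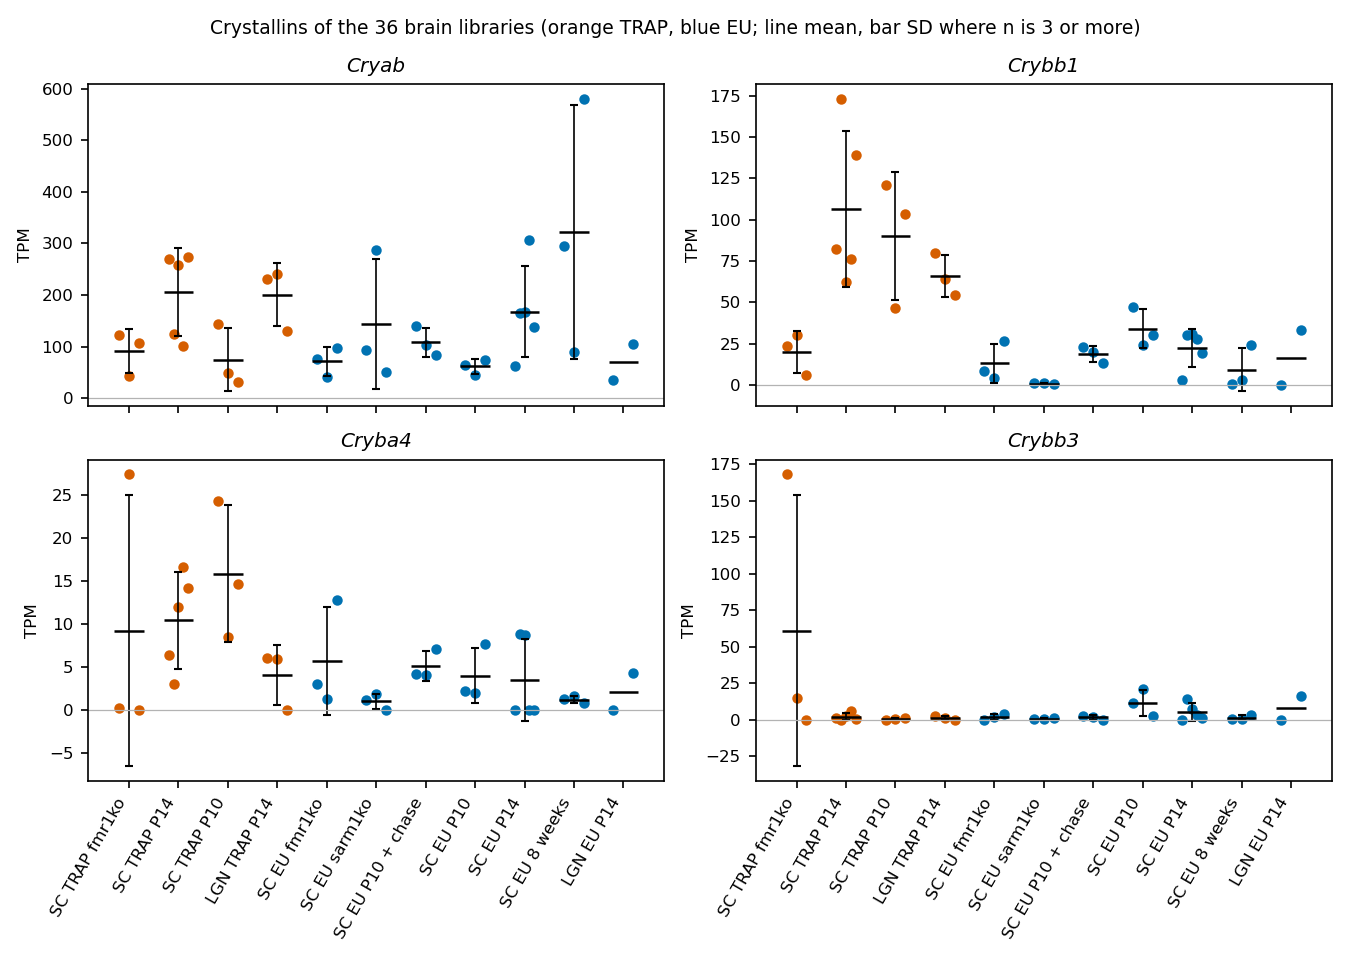
TPM of Cryab, Crybb1, Cryba4 and Crybb3 in the 11 brain groups, with TRAP in orange and EU in blue, points for libraries, lines for means and bars for SD where a group has 3 or more libraries. Crybb1 means are 66.1 to 106.6 TPM in the wild-type TRAP groups and at most 33.9 TPM in the EU groups.

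Cryab had the highest mean TPM of the 10 in every brain group except P10 SC TRAP, where Crybb1 did. Across wild-type SC EU it was at 65.1, 45.6 and 74.6 TPM at P10, at 62.1, 165, 167, 307 and 139 TPM at P14, and at 295, 90.4 and 580.0 TPM at 8 weeks. Across wild-type SC TRAP it was at 144, 48.1 and 31.9 TPM at P10 and at 269.7, 125, 259, 102 and 273 TPM at P14. By group mean the order ran from SC EU at 8 weeks (322 ± 246 TPM, SD, n = 3) down to SC EU at P10 (61.8 ± 14.8 TPM, n = 3), and each group overlapped the next in that order.

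From P10 to P14 Cryab rose in SC EU. It was at 167, 307 and 139 TPM in P14 replicates 3 to 5, against 65.1, 45.6 and 74.6 TPM at P10, and the groups did not overlap. Its log2 fold change was 1.72 ± 0.38 (adjusted p = 0.0391 by edgeR), 1 call among the 4 crystallins tested, where 2.50% of 16262 genes were called, 1.18% higher and 1.32% lower. With all 5 P14 libraries it was 1.30 and no longer called, and leaving out P10 replicate 1, 2 or 3 or P14 replicate 3 or 4 ended the call as well, with adjusted p up to 0.629 over the alternatives. Markers of oligodendrocytes and myelin moved with it: 6 of 14 were higher and 0 lower, with a median log2 fold change of 1.92. Mobp (3.24 ± 0.31, adjusted p = 0.000889) and Mbp (3.12 ± 0.32, adjusted p = 0.0014), both myelin proteins, were among them. The sum of the 14 markers was 10880, 10850 and 7827 TPM at P14 against 1351, 1161 and 2101 TPM at P10, and their part in the Cryab result was not tested.

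In SC TRAP the same step was not called. Cryab was at 259, 102 and 273 TPM at P14, against 144, 48.1 and 31.9 TPM at P10, a log2 fold change of 0.90 ± 0.46 (adjusted p = 0.405 by edgeR). None of the 5 crystallins tested was called (0% of 15752 genes), 0 had an unadjusted p under 0.05, and DESeq2 and limma called 0. Whether the TRAP to EU ratio of Cryab differed between P14 and P10 was tested as an interaction, at -0.73 ± 0.62 (adjusted p = 0.685).

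The remaining ages and the chase gave no call. At 8 weeks against P14 the SC EU log2 fold change of Cryab was 0.69 ± 0.69 (adjusted p = 0.771 by edgeR), and without 8-week replicate 3 it was -0.11. There 0 of 4 crystallins tested were called (0% of 16942 genes), 0 had an unadjusted p under 0.05, and DESeq2 and limma called 0. Mitochondrially encoded genes took 21.1%, 33.8% and 0.905% of counts at 8 weeks, against 1.04%, 0.407% and 1.76% at P14. After the 4-day chase Cryab was at 139, 103 and 83.1 TPM, against 65.1, 45.6 and 74.6 TPM at P10, groups that did not overlap in TPM. Its fitted log2 fold change was 0.26 ± 0.32 (adjusted p = 0.698), and 0 of 4 crystallins were called (0.00597% of 16746 genes). Of these, 2 had an unadjusted p under 0.05, DESeq2 called 1 (3.51% of all genes) and limma 0. Myelin markers summed to 7146, 4425 and 4443 TPM after the chase.

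Between targets Cryab did not differ by more than its error. It was at 62.1 and 165 TPM in P14 SC EU replicates 1 and 2 and at 35.1 and 104 TPM in LGN EU (log2 fold change 0.90 ± 1.13, adjusted p = 1.0 by edgeR), and without SC replicate 2 the sign turned, at -0.30. In TRAP it was at 269.7 and 125 TPM in SC and at 231, 241 and 130.1 TPM in LGN (-0.33 ± 0.55, adjusted p = 1.0). In EU 0 of 3 crystallins and in TRAP 0 of 6 were called (0% of 15448 and 0% of 15551 genes), with 0 at an unadjusted p under 0.05 and 0 by DESeq2 and by limma. These fits did not pair SC and LGN libraries of the same number. With that number as a block 0 crystallins were called as well.

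**Figure D4:**
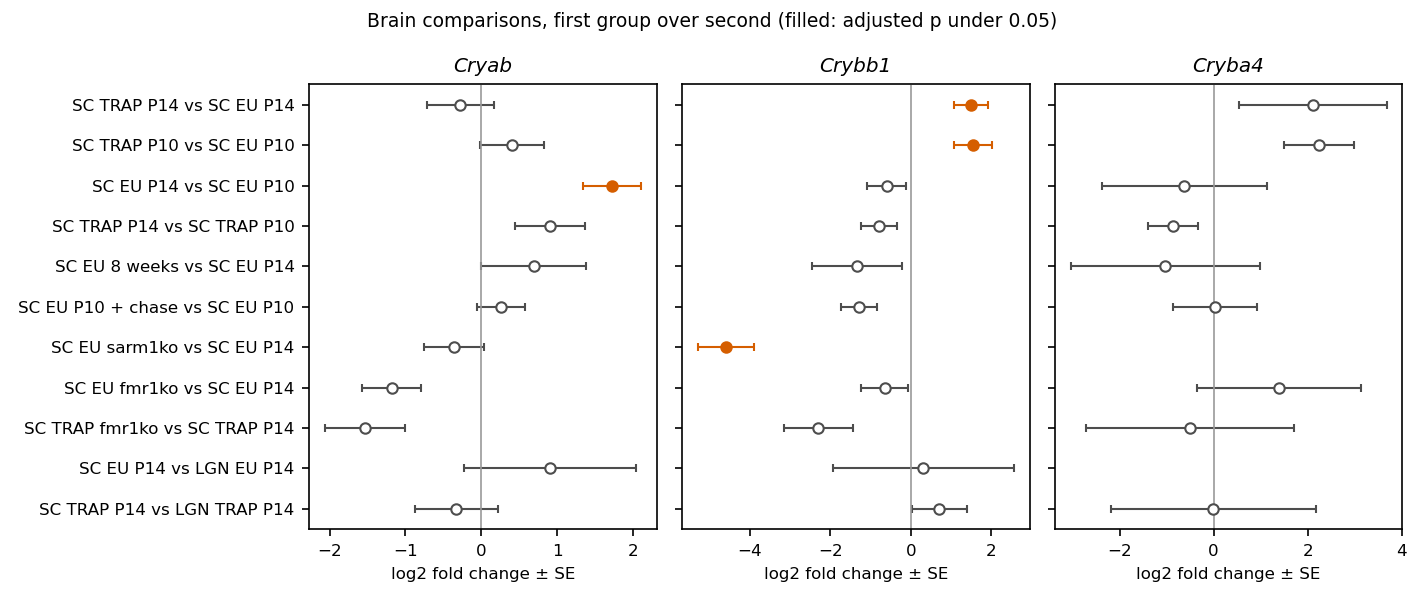
Log2 fold changes ± SE of Cryab, Crybb1 and Cryba4 in the 11 brain comparisons, filled where called. The value farthest below 0 for Crybb1 is that of axotomized SC labelled sarm1ko, at -4.60.

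Crybb1 was higher in TRAP than in EU at both ages. At P14 it was at 62.3, 76.2 and 139 TPM in SC TRAP replicates 3 to 5, against 30.7, 27.8 and 19.4 TPM in SC EU, with no overlap. The log2 fold change was 1.5 ± 0.43 (adjusted p = 0.0416 by edgeR), the one call among 4 crystallins tested, where 14.3% of 16277 genes were called, 5.73% higher and 8.55% lower. At P10 it was at 121, 46.6 and 103 TPM in SC TRAP and 47.1, 24.2 and 30.3 TPM in SC EU, where 1 TRAP library lay below the highest EU library. There the log2 fold change was 1.54 ± 0.47 (adjusted p = 0.044), and 2 of 4 crystallins were called, where 17.7% of 15733 genes were, 6.64% higher and 11% lower.

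Both calls were close to the threshold. At P14 the call was lost in 6 of 13 alternatives, with adjusted p up to 0.157, among them the fits without TRAP replicate 3, 4 or 5 and without EU replicate 3 or 4. At P10 it was lost in 6 of 12, with adjusted p up to 0.144, among them the fits without TRAP replicate 3 or any 1 EU library. The ratio of TRAP to EU was not shown to differ between the ages (interaction -0.11 ± 0.62, adjusted p = 0.992 by edgeR). Per group, wild-type TRAP means were 106.6 ± 47.3 TPM at P14 in SC (n = 5), 90.1 ± 38.7 TPM at P10 in SC (n = 3) and 66.1 ± 12.8 TPM in LGN (n = 3), and these groups overlapped each other. The lowest LGN TRAP library, at 54.5 TPM, lay above the highest P10 SC EU library, the next group in the order.

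Markers of microglia moved with Crybb1. In TRAP against EU 3 of 14 were higher at P14 and 5 of 14 at P10, with 0 lower and median log2 fold changes of 1.28 and 1.19. Their sum was 1022, 1628 and 1809 TPM in P14 SC TRAP, against 603, 494 and 401 TPM in P14 SC EU. At P10 it was 1194, 678 and 810.0 TPM in SC TRAP, against 434, 357 and 455 TPM in SC EU. C1qb, a subunit of complement component C1q, rose by 1.73 ± 0.40 at P14 (adjusted p = 0.0191), and C1qc, another subunit, by 2.18 ± 0.41 at P10 (adjusted p = 0.00638). The part of these cells in the Crybb1 result was not tested.

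Among the 11 brain comparisons the log2 fold change of Crybb1 farthest below 0 was that of axotomized SC labelled sarm1ko. It was at 0.932, 0.829 and 0.527 TPM there, against 30.7, 27.8 and 19.4 TPM in P14 SC EU, with no overlap. The log2 fold change was -4.60 ± 0.70 (adjusted p = 0.00206 by edgeR), and over 13 alternatives it stayed called, between -4.81 and -3.92 with adjusted p up to 0.0435. Of the 2 crystallins tested it was the one called, where 37.4% of 17171 genes were called and 20.8% called lower. Crybb1 had 16 counts over the axotomized libraries, against 804 in P14 SC EU, and passed the count filter through the P14 SC EU group alone. Its call and the alternatives therefore restate that difference in level and are no further support for it. Genotype, axotomy, chase and age differ together between these groups and cannot be told apart. Cryab was at 93.9, 288 and 50.9 TPM in the axotomized libraries, against 167, 307 and 139 TPM in P14 SC EU, and its log2 fold change was -0.36 ± 0.40 (adjusted p = 0.501).

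Of 14 microglial markers, 4 were lower and 0 higher in that comparison, where 20.8% of all genes were lower, and their median log2 fold change was -0.90, beside -4.60 for Crybb1. Tmem119, a microglial membrane protein, was at -2.91 ± 0.51 (adjusted p = 0.00323), and C1qc at -1.49 ± 0.40 (adjusted p = 0.0157). Their sum was 119.6, 448 and 105 TPM in the axotomized libraries, against 603, 494 and 401 TPM in P14 SC EU. Axotomized replicate 2, with the highest marker sum of its group, had Crybb1 at 0.829 TPM, within the range of the other replicates. Mitochondrially encoded genes took 23.4%, 13.1% and 31.4% of counts in the axotomized libraries, against 1.04%, 0.407% and 1.76% in P14 SC EU, and their part in the result was not tested.

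Across ages Crybb1 was not called. It was at 30.7, 27.8 and 19.4 TPM in P14 SC EU, against 47.1, 24.2 and 30.3 TPM at P10, and the groups overlapped (-0.60 ± 0.48, adjusted p = 0.566 by edgeR). After the 4-day chase it was at 22.8, 19.9982 and 13.4 TPM, below all 3 P10 libraries (-1.28 ± 0.45, adjusted p = 0.192). In TRAP the P14 to P10 log2 fold change was -0.79 ± 0.44 (adjusted p = 0.445). Crybb1 had low values in SC EU at 8 weeks, at 0.824, 2.78 and 24.2 TPM, against 30.7, 27.8 and 19.4 TPM at P14 (-1.34 ± 1.13, adjusted p = 0.737), where 2 libraries lay below and 1 within the range of P14. Without 8-week replicate 3 it was called lower, in a fit that called 17.9% of all genes.

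In libraries labelled fmr1ko no crystallin was called. In SC EU Cryab was at 75.2, 41.2 and 97.2 TPM, against 167, 307 and 139 TPM in wild-type P14 SC EU, with no overlap, and its log2 fold change was -1.18 ± 0.39 (adjusted p = 0.12 by edgeR). It was called without P14 replicate 5, at -1.39 (adjusted p = 0.0358), in a fit that called 19.9% of all genes. Mitochondrially encoded genes took 11.3%, 40.0% and 9.58% of counts in the SC EU libraries labelled fmr1ko, against 1.04%, 0.407% and 1.76% in wild-type P14 SC EU, and their part was not tested. Of 4 crystallins tested 0 were called (1.16% of 16546 genes, 0.840% higher and 0.320% lower), 1 had an unadjusted p under 0.05, and DESeq2 and limma called 0. In SC TRAP Cryab was at 123, 42.5 and 107 TPM, against 259, 102 and 273 TPM in wild-type P14 SC TRAP (-1.53 ± 0.53, adjusted p = 0.191). There 0 of 5 were called (0% of 16115 genes), 2 had an unadjusted p under 0.05, and DESeq2 and limma called 0. Without replicate 2, the library with the rod genes, the value was -1.34 and 0 crystallins were called. Crybb1 was at 23.7, 30.4 and 5.81 TPM in SC TRAP labelled fmr1ko, below the 62.3, 76.2 and 139 TPM of wild-type P14 SC TRAP, without a call (-2.30 ± 0.85, adjusted p = 0.223). Microglial markers summed to 478, 23.3 and 527 TPM in those libraries, against 1022, 1628 and 1809 TPM in wild-type P14 SC TRAP, with 0 of 14 called. Since the Fmr1 levels of these groups overlapped those of wild type, the directions are those of libraries labelled fmr1ko.

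The effect of the fmr1ko label on Cryab was set side by side across sources. Between FACS eye cells and SC EU it differed by 3.0 ± 0.77 on the log2 scale (interaction, adjusted p = 0.0693 by edgeR), short of the threshold. It passed in 3 of 15 alternatives, among them without P14 SC EU replicate 5 (3.20, adjusted p = 0.0377, 7.21% of all genes called), with adjusted p between 0.00513 and 0.179. Between TRAP and EU it differed by -0.40 ± 0.66 (adjusted p = 0.777). Over all crystallins 0 of 7 and 0 of 5 tested were called in these interactions (1.79% of 18886 and 5.59% of 18561 genes), with 1 and 0 at an unadjusted p under 0.05 and 1 each by DESeq2 (8.02% and 11.2% of all genes). The model of the ages called 0 of 6 (0% of 18660 genes), with 0 at an unadjusted p under 0.05 and 0 by DESeq2.

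Against the FACS eye cells, P14 SC TRAP held more of 2 of the 5 crystallins tested (44.0% of 17186 genes called, 21.9% higher and 22.1% lower). Cryab was at 259, 102 and 273 TPM in SC TRAP, against 27.9, 50.0 and 54.7 TPM in FACS cells, a log2 fold change of 2.24 ± 0.48 (adjusted p = 0.00926 by edgeR), and its call held in all 13 alternatives. Crybb1 was at 62.3, 76.2 and 139 TPM in SC TRAP, against 0, 12.1 and 1.49 TPM in FACS cells (4.56 ± 1.52, adjusted p = 0.0443), a call lost in 6 of 13, among them without FACS replicate 3 and without any 1 of the 3 TRAP libraries. Crybb1 had no counts in FACS replicate 1 (221 over the FACS group, against 3094 in SC TRAP) and passed the count filter through the TRAP group. Of the microglial list 14 of 14 and of the myelin list 13 of 14 were higher in the same comparison. Between the 2 FACS groups, 2 of 14 microglial and 3 of 14 myelin genes passed the filter. The Crybb1 call and the list numbers restate that difference in level and are no further support for it. Microglial markers summed to 13.9 to 16.8 TPM in FACS cells.

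Cryba4, the divergent neighbour of Crybb1, was the next crystallin by TPM in wild-type TRAP of the SC. It was at 6.34, 2.95, 11.9941, 16.6 and 14.2 TPM in P14 SC TRAP, against 0, 8.77, 8.73, 0 and 0 TPM in P14 SC EU, and in replicates 3 to 5 the groups did not overlap. Its log2 fold change there was 2.11 ± 1.57 (adjusted p = 0.403 by edgeR). At P10 it was at 24.3, 8.49 and 14.7 TPM in SC TRAP and 2.20, 1.99 and 7.65 TPM in SC EU, also without overlap (2.24 ± 0.74, adjusted p = 0.058). By edgeR with all libraries neither age gave a call. Cryba4 was called higher by limma at P14 (15.3% of all genes called), by DESeq2 at P10 (17.8%) and by edgeR at P14 without EU replicate 3 (5.24%).

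Crybb3 went the other way at P10. It was at 0.223, 0.765 and 1.17 TPM in SC TRAP, against 11.3, 20.8 and 2.52 TPM in SC EU, with no overlap and a log2 fold change of -4.08 ± 1.16 (adjusted p = 0.0339 by edgeR). The call was lost in 6 of 12 alternatives, with adjusted p up to 0.196, among them the fits without any 1 TRAP library and without EU replicate 1 or 2. The counts behind it are few, 23 over the 3 TRAP libraries and 211 over the 3 EU libraries, of which EU replicate 2 holds 145. Crybb3 thus passed the count filter through the EU group alone, and its call restates that difference in level and is no further support for it. At P14 its log2 fold change was -0.96 ± 1.16 (adjusted p = 0.625). Its highest brain level, 168 TPM, was in replicate 1 of the SC TRAP libraries labelled fmr1ko, whose replicates 2 and 3 were at 15.3 and 0 TPM.

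Crygn and Cryaa were low in brain and mostly untested for lack of counts. Crygn was at 15.0, 17.995 and 15.6 TPM in P10 SC EU, at 0 to 4.83 TPM in P14 SC EU and at 32.3 TPM in replicate 3 at 8 weeks, whose replicates 1 and 2 were at 0. The P10 levels rest on 25, 7 and 6 counts. After the 4-day chase Crygn was at 2.52, 2.70 and 3.38 TPM, on 1, 1 and 24 counts. Cryaa was at 1.22, 0.247, 0.385, 2.6 and 1.83 TPM in P14 SC TRAP, against 3.36, 2.08, 0, 0.106 and 0 TPM in P14 SC EU. Its highest wild-type brain value was 13.1 TPM, in LGN TRAP replicate 3.

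**Figure D5:**
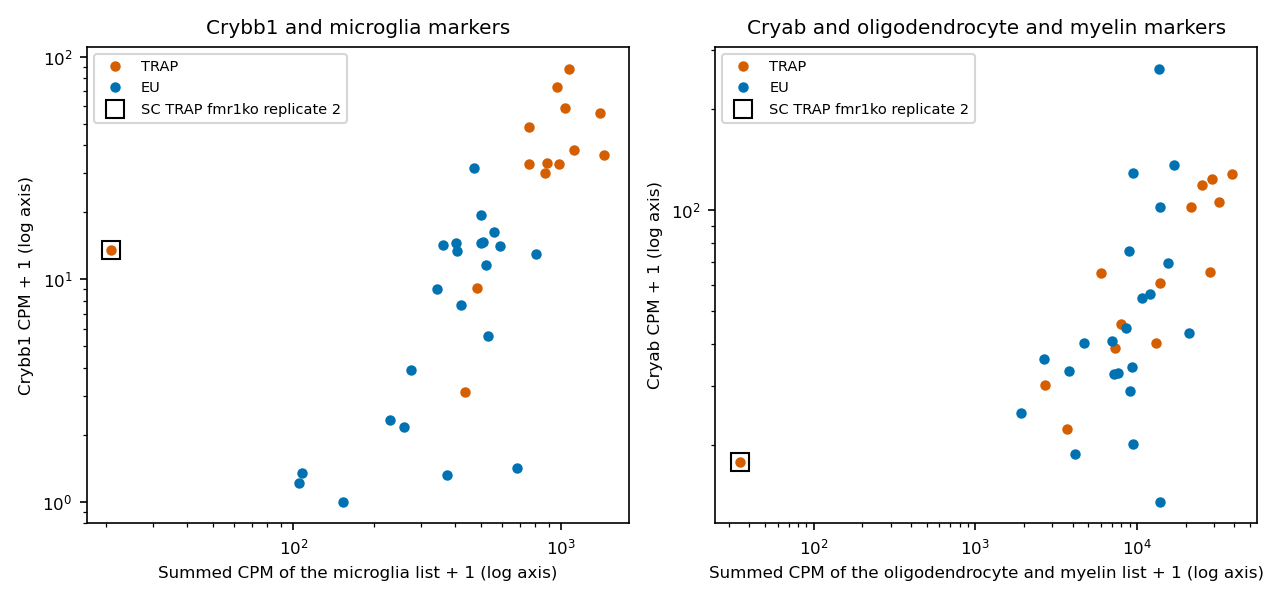
Crybb1 against the summed microglial markers, and Cryab against the summed myelin markers, both as CPM + 1 on log axes in the 36 brain libraries, with replicate 2 of the SC TRAP libraries labelled fmr1ko boxed. Crybb1 and the microglial sum vary together (r = 0.618), as do Cryab and the myelin sum (r = 0.573). Both genes have a higher r with the list of further lens genes (0.743 and 0.685). Of the members of that list named in the text, only Bfsp2 was clearly present in P14 SC TRAP.

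Across the 36 brain libraries, which share captures, ages and depth within groups, Crybb1 varied with the sum of 14 microglial markers (Pearson r = 0.618, Spearman rho = 0.789, on log2(CPM + 1), CPM being counts scaled to library size). Without the boxed library r was 0.824 over 35 libraries. Cryab varied with the 14 oligodendrocyte and myelin markers (r = 0.573, rho = 0.684; r = 0.621 over 35 libraries). Cryba4 and Crybb1 varied together (r = 0.643, and 0.669 over 35), and Cryba4 with microglial markers at r = 0.25 over 36 and 0.615 over 35 libraries. Crybb3 showed little relation to any of these, at r = 0.222 with Crybb1 and -0.114 with microglial markers. The list of further lens genes gave higher values over 36 libraries, at r = 0.743 with Crybb1 and 0.685 with Cryab. Over 35 libraries these were 0.748, below the microglial value, and 0.688. Of the members of that list named in the text, only Bfsp2 was clearly present in P14 SC TRAP, so the list sum does not stand for lens genes as a set. Cryab was at 0.596 with microglial markers over 36 libraries, and Crybb1 at 0.082 with myelin markers. With astrocyte markers Crybb1 was at 0.02 and Cryab at 0.363, and with rod genes at 0.045 and -0.072. These values describe the libraries and carry no test.

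Likeness was ranked over all genes with a mean of at least 1 CPM. The genes most like the summed crystallins over the 12 eye libraries were the gamma crystallins Crygb (r = 0.984), Crygd (0.981), Cryge (0.975), Crygc (0.973) and Cryga (0.950), a relation set largely by the 2 lens-rich libraries. Without those, Crygb remained first at r = 0.944 over 10 libraries, followed by Sat1 (0.937), Mt1 (0.936), Cetn3 (0.936) and Frmd5 (0.932). Over the 36 brain libraries the most alike were Gpd1 (0.845) and Flywch1 (0.800) for Cryab, Nfkbib (0.918) and Cuta (0.916) for Crybb1, Erbb2 (0.830) for Cryba4, Map3k14 (0.789) for Crybb3, and Lrit2 (0.755) for Cryaa. Without the rod-rich SC TRAP library labelled fmr1ko, over 35 libraries, Gpd1 (0.854), Nfkbib (0.921) and Map3k14 (0.777) stayed first for Cryab, Crybb1 and Crybb3, and Ptgr1 (0.848) came before Erbb2 (0.810) for Cryba4. The likeness of Cryaa was not ranked without that library, and its correlation with the summed rod genes was 0.605 over 36 and -0.094 over 35 libraries.

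The other small heat shock genes, relatives of the alpha crystallins, were at lower levels than the crystallins in the lens-rich libraries. A list of 7 summed to 557, 37.5 and 52.4 TPM in EU-labelled immunopanned libraries and to 0.130, 57.9 and 49.3 TPM in unlabelled ones, and to 389 to 506 TPM in wild-type FACS cells. Hspb6 made up most of it in FACS cells, at 454 ± 59.3 TPM (SD, n = 3), where Cryab was at 44.2 ± 14.3 TPM. Of the list, 3 of 5 tested were higher and 1 lower in P14 SC TRAP against FACS cells, and 1 of 5 was higher in P14 SC TRAP against SC EU. The lens gene Bfsp2 was also present in brain, at 38.1 to 143 TPM in P14 SC TRAP and 1.24 to 107 TPM in P14 SC EU, where Mip and Lgsn were at most 0.308 TPM.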

How the data were processed

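The submitters' processing notes name Salmon as the tool and mm10 as the build. Versions, annotation and strand setting are not stated in the sources used here. The deposited tables hold estimated counts and TPM as the authors scaled them, per the file headers and the values. Of 54331 gene identifiers, 54097 matched GENCODE M21 on GRCm38.

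Counts were rounded, filtered with filterByExpr, scaled with TMM factors and fitted per comparison in edgeR 4.0.16 (R 4.3.3) with the robust quasi-likelihood F test, two-sided. P-values were adjusted over all tested genes by the Benjamini-Hochberg method. Interactions tested differences between comparisons. Adjusted p-values in the text are from edgeR unless named otherwise. DESeq2 1.42.0 and limma 3.58.1 (trend, on log2(TPM + 1)) were alternatives, as were RLE size factors, no filter, scaling without crystallins and mitochondrially encoded genes, the P14 groups with all 5 SC libraries, a block on the replicate number and each library left out. The procedure was tested on simulated data. In no comparison with 3 pairs did all same-numbered libraries vary together (correlations of deviations from -0.585 to 0.216), and the 2 pairs each of SC and LGN libraries correlated at 0.317 to 0.408.

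Groups follow titles and characteristics. The crystallins and the gene lists were chosen with earlier results of these data known. Fold changes are given for each called crystallin and otherwise for the one with the most counts, plus further crystallins beside them. Of each list, the 3 most abundant genes or, in a comparison, the 2 with the smallest adjusted p may be named. The labels do not say whether libraries are separate animals. The p-values therefore reflect differences among libraries, which may be technical. Floors of 3 counts cover counting error only.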

Additional observations from a re-analysis of the deposited data

Results flagged for a closer look

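In groups of 5 libraries, 1 crystallin level stood far from its group. Cryba2 was at 10.7 TPM in replicate 2 of the P14 SC EU libraries, where the nearest other library was at 1.36 TPM and the rest at 0, so that the gap took 0.873 of the range. Across 14 sets of gene and group examined this was the only one, and chance marks about 1 in 20 such groups. The library holds 23 counts of Cryba2 and enters the comparison with the LGN and the alternative with all 5 P14 libraries.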

How the results depend on the processing

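Depth limits the low crystallins: those with few counts were left untested, and a level of 0 bounds a gene only to 3 counts over its group. The calls of Cryaa, Cryba1, Cryba2, Crybb2, Crybb3 and Crygs in SC EU against EU-labelled immunopanned cells, of Cryab in SC TRAP against FACS cells and of Crybb1 in axotomized SC labelled sarm1ko held under every alternative run. Among them, Cryaa, Cryba1, Cryba2, Crybb2 and Crygs passed the count filter through the immunopanned group alone. Crybb1 in axotomized SC labelled sarm1ko passed it through the P14 SC EU group alone. Of the single-gene values under alternatives, 310 kept direction and call, 37 lost a call, 9 gained one and 6 reversed. The reversed values are small. Cryab was at -0.11 at 8 weeks against P14 without 8-week replicate 3, and at -0.30 in SC against LGN EU without SC replicate 2. The change of the Crybb1 ratio between ages was 0.04 without P14 TRAP replicate 3, 0.23 without P10 TRAP replicate 3, 0.00 without P10 EU replicate 2 and 0.04 without P10 EU replicate 3. Over libraries left out, these 3 values ran from -0.11 to 1.17, from -0.30 to 1.70 and from -0.49 to 0.23. The cause was not tested.

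Numbers of called crystallins are listed here where they moved from the main fit by a ratio above 1.5, or to or from 0. The share of all genes called is given above for some of these fits. The other numbers stand without that share and are no result about the crystallins. With DESeq2 the crystallins called numbered 9 in EU-labelled against unlabelled immunopanned cells, 9 in FACS against EU-labelled immunopanned cells, 2 in TRAP against EU at P14, 1 after the chase, 2 in axotomized SC and 1 in each fmr1ko interaction. With limma the numbers that moved were 7 in FACS against EU-labelled immunopanned cells, 2 in TRAP against EU at P14 and 1 at P10. In SC EU against EU-labelled immunopanned cells DESeq2 called 9 and limma 7, beside 7 in the main fit. With no filter the crystallins called were 1 in each of EU-labelled against unlabelled immunopanned cells, SC TRAP against FACS cells, the chase and the FACS interaction. With all 5 P14 libraries, 0 were called in SC EU at P14 against P10. The replicate block gave 6 in FACS against EU-labelled immunopanned cells, 1 in SC TRAP against FACS cells and 0 in TRAP against EU at P14 and at P10. It could not be fitted for EU-labelled against unlabelled immunopanned cells, which share fewer than 2 numbers. Outside SC against LGN, the numbers are not shown to pair the libraries. In SC against LGN the deviations of the 2 pairs each correlated at 0.317 to 0.408, and the main fits left this pairing out. There the block called 80 genes in EU (0.518%) and 29 in TRAP (0.186%), against 0 without it, and 0 crystallins. The crystallin share in FACS cells was 0.00735% by TPM, beside 0.00278% by counts, and in every other group the mean share by TPM was above that by counts as well.

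Leaving out 1 library in turn, the crystallins called ranged from 0 to 3 in FACS against EU-labelled immunopanned cells and from 1 to 3 in SC TRAP against FACS cells. The range was 0 to 1 in TRAP against EU at P14 and at P10, P14 against P10 SC EU, 8 weeks against P14, SC EU labelled fmr1ko against wild type and both fmr1ko interactions, and 1 to 2 in axotomized SC. These ranges stand without the share of all genes called in each fit and are no result about the crystallins. The cause was not tested.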
